A study of Sus scrofa with 4 samples.

Results

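Wnt target and feedback genes are the genes that cells switch on when the Wnt pathway is active, many of which then restrain the pathway. The set described here was fixed by name: AXIN2, NKD1, NKD2, NOTUM, APCDD1, TNFRSF19, LEF1, TCF7, SP5 and ASCL2. Of these 10 genes, 9 had a row among the 29263 genes of the count tables, and NKD2 was not analysed here. The libraries came from lung cells of pigs with an LGR5-H2B-GFP knock-in, which all 4 libraries share. In this line LGR5, the receptor for the Wnt-amplifying R-spondins, is reported by a histone carrying green fluorescent protein. Histone-bound fluorescence can outlast the transcription that made it. Fluorescence-activated sorting gave brightly fluorescent cells (GFP-HI) and cells that did not fluoresce (GFP-NEG), each with biological replicates 1 and 2. Per the labels' protocols, the tissue was digested with dispase, collagenase and DNase and dead cells were excluded. The same text names antibodies to EPCAM and NGFR without saying whether they gated these libraries. It covers adult and fetal lung, and only the name of the deposited comparison table says adult.

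In canonical Wnt signalling, a ligand bound to Frizzled and LRP receptors stops the breakdown of beta-catenin, which then joins TCF/LEF factors on DNA and turns target genes on. AXIN2, NKD1, NOTUM and APCDD1 are feedback inhibitors at different steps of the route, and AXIN2 is widely used as a readout of it. In lung, AXIN2 and LGR5 are known as marks of mesenchymal cell populations. LEF1 and TCF7 are TCF/LEF factors themselves and are also well known in T lymphocytes.

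The GFP-HI libraries held 24200550 and 24689986 counts and the GFP-NEG libraries 6292253 and 7045652 counts, so 1 count was worth 0.0453 to 0.0496 CPM in GFP-HI and 0.110 to 0.155 CPM in GFP-NEG. CPM is the count relative to the library total in the usual edgeR unit, scaled with TMM factors. Despite the lower totals, more genes had a count in GFP-NEG (24120 and 25985) than in GFP-HI (18752 and 18392). The cause of this was not tested. LGR5 itself had 3218 and 3073 counts in GFP-HI, against 10 and 7 in GFP-NEG. Fibroblast markers summed to 82455 and 72681 CPM in GFP-HI against 25442 and 9052 CPM in GFP-NEG, and 7 of the 10 listed rose. The 11 T cell markers summed to 99.2 and 167 CPM in GFP-HI against 638 and 1351 CPM in GFP-NEG, and 10 of them fell. The pan-leukocyte gene PTPRC and all 6 endothelial markers fell. Over all tested genes 8.35% were called higher and 27.6% lower. The epithelial sums were 365 and 361 CPM in GFP-HI against 796 and 198 CPM in GFP-NEG, which overlap. Smooth muscle and pericyte sums overlapped too, at 1251 and 2249 CPM against 2437 and 339 CPM. Of the 9 epithelial markers 2 fell, and of the 7 smooth muscle and pericyte markers 3 fell. Most of these counts rest on single libraries. The fibroblast count was 2 without GFP-NEG replicate 2 and 5 without either GFP-HI library. The endothelial count was 4, 2 and 3 without GFP-HI replicate 1, GFP-HI replicate 2 and GFP-NEG replicate 1. Without GFP-NEG replicate 1, 3 smooth muscle and pericyte markers were called higher and 0 lower, and 1 epithelial marker higher and 0 lower. Without GFP-HI replicate 2 the falling markers numbered 1 and 0 in these lists, and without GFP-HI replicate 1 they numbered 2 and 1. None of the markers in these lists was at 0 in both libraries of a group. In bulk fractions like these, fewer cells of a type and less RNA per cell cannot be told apart.

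Among the Wnt target and feedback genes, AXIN2, NKD1, APCDD1 and TNFRSF19 rose in GFP-HI, with log2 fold changes between 2.07 and 4.26. NOTUM, LEF1 and TCF7 did not pass the test, and SP5 and ASCL2 did not pass the filter on low counts. For the 4 genes that rose, both GFP-HI libraries lay above both GFP-NEG libraries, as in 27.7% of all tested genes. Of the 7 genes that passed the filter on low counts, 4 were called higher and 0 lower at an adjusted p under 0.05 (edgeR quasi-likelihood test, Benjamini-Hochberg over all 19682 tested genes). Over all tested genes 8.35% were called higher and 27.6% lower. At an unadjusted p under 0.05 in edgeR, 1 of the 7 was lower (TCF7), against 31.0% of all tested genes, and DESeq2 and limma-voom also called 0 lower. The median log2 fold change of the 7 was 2.07, against -0.25 over all tested genes. The count of 4 became 1 without GFP-NEG replicate 2, where TNFRSF19 alone was called.

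**Figure D1:**
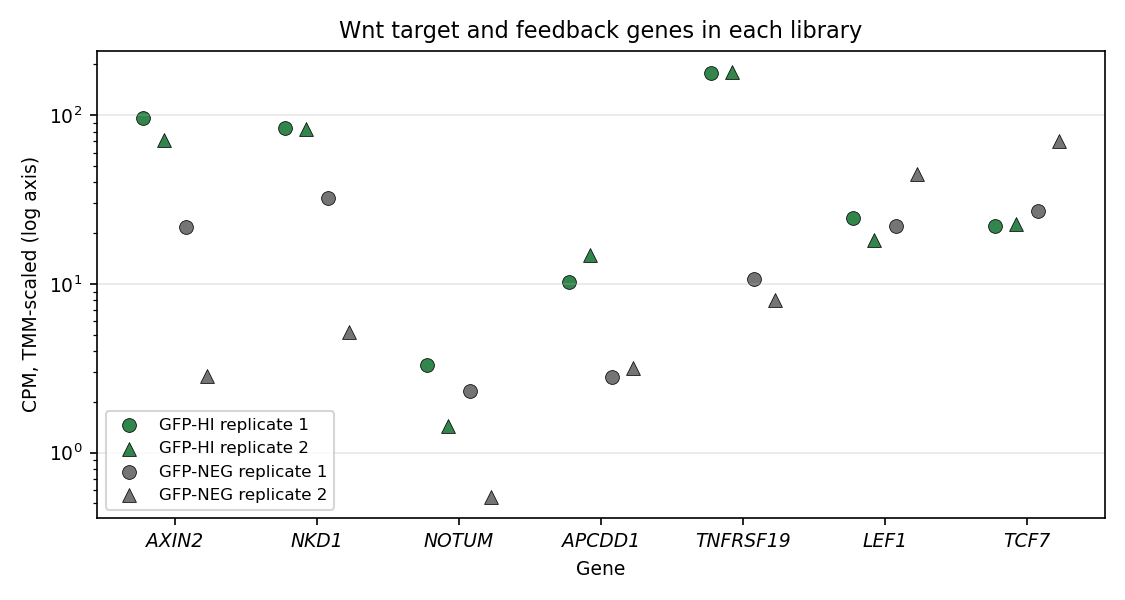
CPM (TMM-scaled, log axis) of the 7 tested Wnt target and feedback genes in each library, with GFP-HI in green, GFP-NEG in grey, circles for replicate 1 and triangles for replicate 2. AXIN2, NKD1, APCDD1 and TNFRSF19 have both green points above both grey points, and for AXIN2 and NKD1 the grey points lie far apart (21.7 and 2.85 CPM for AXIN2).

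AXIN2 encodes a scaffold of the complex that marks beta-catenin for destruction. It had 2124 and 1433 counts in the GFP-HI libraries, or 96.2 and 71.0 CPM, and 140 and 26 counts in the GFP-NEG libraries, or 21.7 and 2.85 CPM. The groups did not overlap, but the GFP-NEG libraries stood 7.63-fold apart. That gap is beyond counting error: the exact 95% Poisson intervals were 18.3 to 25.7 CPM for replicate 1 and 1.86 to 4.18 CPM for replicate 2. Such intervals cover counting error only. AXIN2 was therefore 4.43-fold higher in GFP-HI within replicate 1 and 24.9-fold higher within replicate 2. The SE given with each edgeR log2 fold change rests on the variance shared over genes, not on the gene's own replicate scatter. The fitted log2 fold change of 2.78 ± 0.55 (SE) passed at an adjusted p of 1.3e-05 in edgeR, against 0.0019 in DESeq2 and 0.018 in limma-voom. It became 1.91 without GFP-NEG replicate 2, with the call lost (adjusted p of 0.11, against a range of 1.0e-05 to 0.11 over 14 alternatives), and 4.92 without GFP-NEG replicate 1. RefSeq's gene table places CEP112 in overlap with AXIN2, and CEP112 had 1047 and 1751 counts in GFP-HI, against 146 and 89 in GFP-NEG. In CPM these were 47.4 and 86.8 against 22.7 and 9.76. Whether counting used the strand is not given in the sources used here, so reads shared by the overlapping genes cannot be told apart.

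NKD1 encodes an inhibitor that binds Dishevelled, the relay just inside the Wnt receptor. Its GFP-HI libraries were almost equal at 83.5 and 82.9 CPM (1842 and 1672 counts), whereas its GFP-NEG libraries differed 6.27-fold, at 32.3 and 5.15 CPM (208 and 47 counts). As for AXIN2, GFP-NEG replicate 1 was the higher of the negative fractions, and both lay below GFP-HI. NKD1 was 2.58-fold higher in GFP-HI within replicate 1 and 16.1-fold higher within replicate 2. The fitted log2 fold change of 2.16 ± 0.54 (SE) had an adjusted p of 3.7e-04 in edgeR, against 0.013 in DESeq2 and 0.033 in limma-voom. Without GFP-NEG replicate 2 it was 1.33, with the call lost (adjusted p of 0.35, against a range of 1.3e-04 to 0.35 over 14 alternatives), and without GFP-NEG replicate 1 it was 4.06.

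NOTUM encodes a secreted enzyme that removes the lipid from Wnt ligands and so inactivates them. It was low throughout, at 3.31 and 1.44 CPM in GFP-HI (73 and 29 counts) and 2.33 and 0.548 CPM in GFP-NEG (15 and 5 counts). The groups overlapped, since GFP-NEG replicate 1 lay between the GFP-HI libraries. The log2 fold change of 0.75 ± 1.20 (SE) did not pass (adjusted p of 0.67, edgeR). The sign of this value rested on GFP-NEG replicate 2, and at these counts a difference was not detectable. NOTUM nonetheless shared with AXIN2 and NKD1 the order of the negative fractions, with replicate 1 4.25-fold above replicate 2.

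APCDD1 encodes a membrane protein that binds Wnt and LRP and blocks the signal at the cell surface. It had 226 and 301 counts in GFP-HI, or 10.2 and 14.9 CPM, and 18 and 29 counts in GFP-NEG, or 2.79 and 3.18 CPM. The groups did not overlap, and the negative fractions lay close together, unlike those of AXIN2 and NKD1. APCDD1 was 3.66-fold higher in GFP-HI within replicate 1 and 4.69-fold higher within replicate 2. With library totals alone these values were 3.26 and 2.96. Its log2 fold change of 2.07 ± 0.77 (SE) passed the threshold with an adjusted p of 0.024 in edgeR. The call was lost under 8 of 14 alternatives, over which the log2 fold change stayed between 1.61 and 2.46 and the adjusted p ranged from 0.011 to 0.16. Among these were library-size scaling (adjusted p of 0.16), limma-voom (0.051), and leaving out GFP-HI replicate 2, GFP-NEG replicate 1 or GFP-NEG replicate 2 (0.13, 0.072 and 0.13).

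TNFRSF19, also called TROY, is a receptor of the tumour necrosis factor family known as a Wnt target in intestinal stem cells that carry LGR5. It had the largest fitted difference of the 7 tested genes with all 4 libraries. AXIN2 had the larger one within replicate 2 (4.57 against 4.47 in log2 CPM) and without GFP-NEG replicate 1. Its level was 178 and 180 CPM in GFP-HI (3923 and 3638 counts) and 10.7 and 8.0 CPM in GFP-NEG (69 and 73 counts), that is 179 ± 1.85 against 9.36 ± 1.92 CPM (SD, n = 2 in each group). Both groups were tight and far apart. TNFRSF19 was 16.6-fold higher in GFP-HI within replicate 1 and 22.5-fold higher within replicate 2. The log2 fold change of 4.26 ± 0.63 (SE) passed at an adjusted p of 2.3e-09 in edgeR. It ranked 40th from the top by log2 fold change among all tested genes, while AXIN2 ranked 264th, NKD1 638th and APCDD1 723rd. The TNFRSF19 call held under all 14 alternatives, with log2 fold changes from 3.85 to 4.53.

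**Figure D2:**
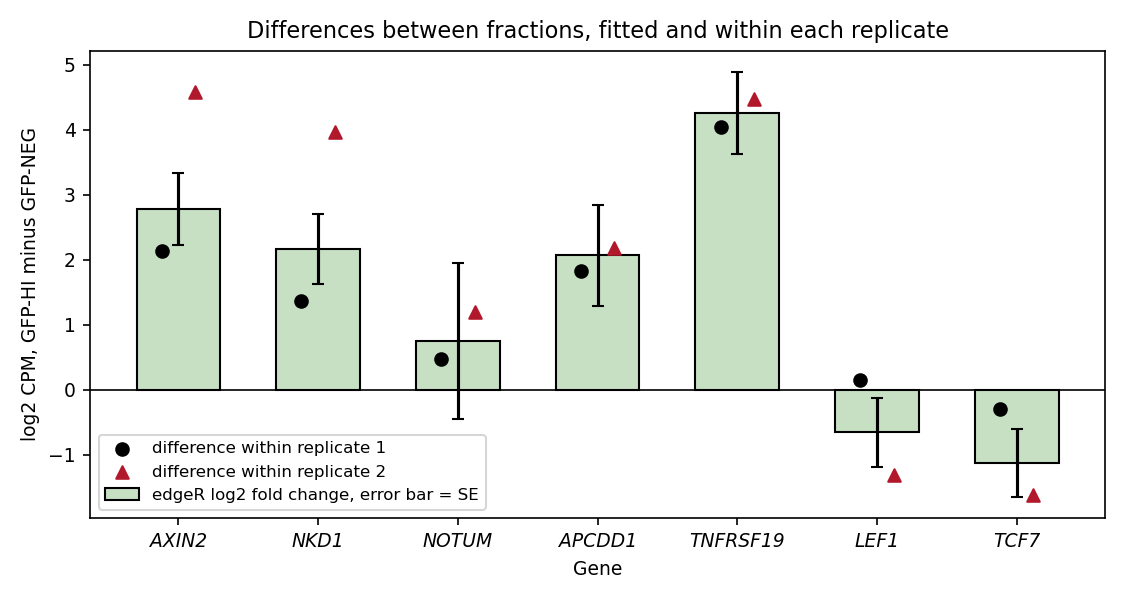
Difference in log2 CPM between GFP-HI and GFP-NEG for the 7 tested genes: bars give the edgeR log2 fold change with its standard error, circles the difference within replicate 1 and triangles that within replicate 2. TNFRSF19 and APCDD1 have circle and triangle close together, whereas AXIN2 (2.14 and 4.57) and NKD1 (1.37 and 3.97) do not. The error bars rest on the variance shared over genes, not on the replicate scatter of each gene.

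Neither TCF/LEF factor of the set passed the test. LEF1, which carries beta-catenin on DNA, had 542 and 366 counts in GFP-HI, or 24.6 and 18.1 CPM, and 142 and 410 counts in GFP-NEG, or 22.0 and 44.9 CPM. The groups overlapped, and GFP-NEG replicate 2 stood above the other 3 libraries. LEF1 differed by 0.15 on the log2 scale within replicate 1 and by -1.30 within replicate 2. The log2 fold change of -0.65 ± 0.53 (SE) did not pass (adjusted p of 0.36, edgeR). RefSeq's gene table lists 2 long non-coding genes in overlap with LEF1.

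TCF7 encodes the factor also called TCF1, which T cells use in their development. It stood at 22.0 and 22.8 CPM in GFP-HI (486 and 459 counts) and at 27.0 and 70.3 CPM in GFP-NEG (174 and 641 counts). Both GFP-HI libraries were below both GFP-NEG libraries, with GFP-NEG replicate 2 again the highest. Among all tested genes, 42.0% had their groups apart in this direction. The log2 fold change of -1.12 ± 0.52 (SE) did not pass (adjusted p of 0.079, edgeR). It passed the threshold in 3 of 14 alternatives: upper-quartile scaling (-1.51), library-size scaling (-1.63) and GFP-HI thinned to the GFP-NEG depth (-1.36). Their adjusted p-values were 0.012, 0.0081 and 0.042, within a range of 0.0081 to 0.88 over the 14. Without GFP-NEG replicate 2 the log2 fold change of TCF7 was -0.31 and that of LEF1 was -0.08.

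SP5, a zinc-finger factor induced by Wnt in many tissues, had 6 and 0 counts in GFP-HI, against 2 and 1 in GFP-NEG. ASCL2, the helix-loop-helix factor of intestinal stem cells, had 0 counts in both GFP-HI libraries and 0 and 3 in GFP-NEG. A count of 0 allows up to 3 counts, which is 0.136 and 0.149 CPM in the GFP-HI libraries and 0.466 CPM in GFP-NEG replicate 1. Neither gene passed the filter on low counts. With no filter, SP5 stood at -0.49 on the log2 scale, with an adjusted p of 0.89, and ASCL2 had an adjusted p of 0.27 (edgeR). Neither difference was detectable at this depth.

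The tested genes also differed in which libraries varied. Between the GFP-HI replicates, the 7 genes differed by -1.13 (NOTUM) to 0.54 (APCDD1) in log2 CPM, replicate 2 minus replicate 1. Between the GFP-NEG replicates the same difference ran from -2.87 (AXIN2) to 1.37 (TCF7). AXIN2, NKD1 and NOTUM were higher in GFP-NEG replicate 1, LEF1 and TCF7 were higher in GFP-NEG replicate 2, and APCDD1 and TNFRSF19 differed by only 0.18 and -0.41. With TMM scaling the difference between fractions was larger in size within replicate 2 than within replicate 1 in 7 of 7 genes, as in 71.1% of all tested genes. With library totals alone this held for 5 of the 7, not for APCDD1 and TNFRSF19. Of the 7, 5 were higher in GFP-HI in both replicates, 1 was lower in both (TCF7) and 1 had opposite signs (LEF1), while over all tested genes 33.4% were higher and 46.5% lower in both. This tally depends on the scaling: with library totals alone LEF1 differed by -0.011 within replicate 1 and by -1.96 within replicate 2, which made 2 genes lower in both, against 54.5% of all tested genes.

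Markers of other cells moved with these differences. The fibroblast marker sum was 2.81-fold higher in GFP-NEG replicate 1 than in replicate 2, the order also seen for AXIN2, NKD1 and NOTUM. Without the collagens it was 3.98-fold higher. Smooth muscle and pericyte markers (2437 and 339 CPM), epithelial (796 and 198) and endothelial markers (1275 and 543) had the same order. PTPRC had the opposite order, at 687 and 1214 CPM. The T cell marker sum was 2.12-fold higher in GFP-NEG replicate 2, the order also seen for LEF1 (2.04-fold) and TCF7 (2.60-fold). The part of these markers in the differences was not tested. As a description chosen after the values were seen, counts of each gene were set against marker counts of the same library.

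Per 1000 fibroblast marker counts, AXIN2 had 1.17 and 0.977 counts in GFP-HI against 0.854 and 0.315 in GFP-NEG, so the groups stayed apart but by less than in CPM. NKD1 had 1.01 and 1.14 in GFP-HI, against 1.27 and 0.569 in GFP-NEG, and the groups overlapped. APCDD1 overlapped as well, with 0.124 and 0.205 against 0.110 and 0.351. TNFRSF19 had 2.16 and 2.48 in GFP-HI against 0.421 and 0.884 in GFP-NEG and remained apart. NOTUM, at low counts, was lower in GFP-HI, with 0.0401 and 0.0198 against 0.0915 and 0.0606. LGR5 had 1.77 and 2.10 against 0.0610 and 0.0848.

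The choice of denominator mattered, because 3 collagen genes made up 70.0% to 93.3% of the fibroblast marker counts in each library. Per 1000 counts of the other 7 fibroblast markers, AXIN2 had 6.37 and 3.26 counts in GFP-HI against 8.97 and 4.68 in GFP-NEG, which overlap. TNFRSF19 overlapped on this scale too, with 11.8 and 8.28 against 4.42 and 13.2. NKD1 was lower in GFP-HI there, with 5.53 and 3.81 against 13.3 and 8.47, and so was APCDD1, with 0.678 and 0.685 against 1.15 and 5.22. This denominator was uneven as well. DCN and LUM were its largest parts in each library, with log2 fold changes of 3.57 and 3.96. DCN alone had 6439 and 9662 of 15098 and 21776 CPM in GFP-HI, and 1078 and 280 of 2424 and 609 CPM in GFP-NEG. NOTUM was lower in GFP-HI on this scale too, with 0.219 and 0.0660 against 0.961 and 0.901. LGR5 stayed apart, with 9.66 and 7.0 against 0.641 and 1.26.

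Set against T cell markers, the negative fractions came close together for both TCF/LEF factors. LEF1 had 34.6 and 33.3 counts per 1000 T cell marker counts in the GFP-NEG libraries, and TCF7 had 42.3 and 52.0. In GFP-HI, where T cell markers were lower, the values were 247 and 109 for LEF1 and 222 and 137 for TCF7. Leaving out CD3G, the T cell marker that did not fall, gave 37.6 and 34.8 for LEF1 and 46.1 and 54.5 for TCF7 in GFP-NEG, and 407 and 146 for LEF1 and 365 and 184 for TCF7 in GFP-HI.

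**Figure D3:**
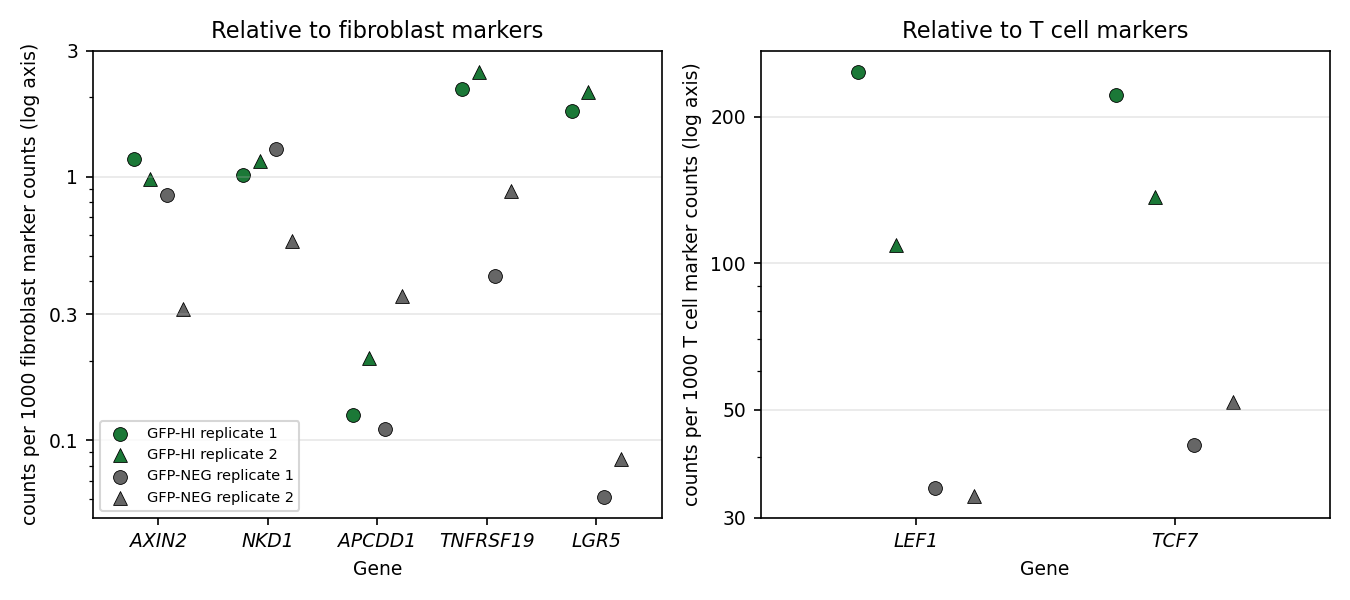
Counts of each gene per 1000 counts of fibroblast markers (left) or T cell markers (right) in the same library, on log axes, with GFP-HI in green, GFP-NEG in grey, circles for replicate 1 and triangles for replicate 2. TNFRSF19 and LGR5 stay apart between fractions on the left, NKD1 and APCDD1 overlap, and on the right the GFP-NEG libraries lie close together for LEF1 (34.6 and 33.3).

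The genes whose profile over the 4 libraries was nearest to that of AXIN2 were TNC, CPED1, LAMB1, C3 and GPM6B, by Euclidean distance in centred log2 CPM among 9245 other genes with a symbol and a mean of at least 10 CPM. Their distances were 0.15, 0.15, 0.22, 0.31 and 0.31. TNC and LAMB1 encode extracellular matrix proteins and C3 a complement protein. Since they were chosen for a profile like that of AXIN2, their GFP-NEG gap (at least 5.94-fold) and their log2 fold changes of 2.43 to 2.97 follow from the choice and are given as a description. Without GFP-NEG replicate 2 none of the 5 was called, at adjusted p-values of 0.27 to 0.35 in edgeR. By the same measure NKD1 ranked 61st in nearness to AXIN2 and TNFRSF19 736th, while LEF1 and TCF7 ranked 7984th and 8354th.

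The paralogs of these genes gave other values. AXIN1, the constitutive scaffold of the same complex, had 648 and 321 counts in GFP-HI, against 113 and 129 in GFP-NEG. In CPM these were 29.4 and 15.9 against 17.5 and 14.1, and the groups overlapped. The log2 fold change of 0.52 ± 0.56 (SE) did not pass (adjusted p of 0.51, edgeR). TCF7L2, another TCF/LEF factor, had 723 and 657 counts in GFP-HI, against 122 and 54 in GFP-NEG. In CPM it had 32.8 and 32.6 against 18.9 and 5.92. Its rise of 1.40 in log2 units passed (adjusted p of 0.036, edgeR), a call lost under 10 of 14 alternatives, whose adjusted p reached 0.68. The difference between paralogs was not tested.

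Other Wnt targets and modulators formed a list of 20 genes, of which 17 were tested. Of these, 6 were higher and 2 lower in GFP-HI, against 8.35% and 27.6% of all tested genes. The median log2 fold change of the list was 1.40. LGR5 is in this list by the sort itself. DACT1, a binder of Dishevelled, rose by 2.71 and EPHB3, an ephrin receptor, by 2.37 (adjusted p of 7.6e-05 and 1.8e-04, edgeR). Both calls were lost without GFP-NEG replicate 2 (adjusted p of 0.094 and 0.056). WIF1, a secreted Wnt-binding inhibitor, fell, with 30.4 and 33.1 CPM in GFP-HI and 400 and 33.4 CPM in GFP-NEG. Its log2 fold change was -2.77, and -0.02 without GFP-NEG replicate 1. The list held 1 higher and 1 lower gene without GFP-NEG replicate 2.

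Of 26 tested genes of the core machinery, which here includes nuclear partners of beta-catenin and TCF factors, 4 rose, 1 fell and 21 did not pass. Over all tested genes 8.35% were called higher and 27.6% lower. The median log2 fold change of the list was 0.51. In limma-voom 1 gene of the list was called higher and 0 lower. PYGO1, which helps beta-catenin activate transcription, rose by 2.24, and TLE1, a TCF co-repressor, by 1.73 (adjusted p of 0.002 and 0.0047, edgeR). BCL9, the partner of PYGO1, rose by 1.44 and DVL3, a Dishevelled, by 1.32 (adjusted p of 0.021 and 0.036, edgeR). The TLE1 paralog TLE4, named after its value was seen, fell by 1.31 (adjusted p of 0.037, edgeR). None of these genes was called without GFP-NEG replicate 2, and upper-quartile scaling gave 2 higher and 2 lower. CTNNB1, also named after its values were seen, is the gene of beta-catenin itself. It had 19277 and 16173 counts in GFP-HI, against 3578 and 2101 in GFP-NEG. In CPM it had 873 and 802 against 556 and 230. Its log2 fold change of 1.09 ± 0.77 (SE) did not pass (adjusted p of 0.28, edgeR).

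Of the 10 genes, 7 appear in the authors' deposited table, which calls the same 4 higher and 0 lower and calls 8.20% of its 16250 genes higher and 11.2% lower. The adjusted p-values in the authors' deposited table were 1.6e-13 for TNFRSF19, 0.0019 for AXIN2, 0.013 for NKD1 and 0.023 for APCDD1. The DESeq2 alternative on the same counts gave these same values, so they are not separate evidence. It tested 24178 genes and called 1354 higher and 6024 lower. The shares in the deposited table are therefore over a different set of genes and do not compare with those given above.

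**Figure D4:**
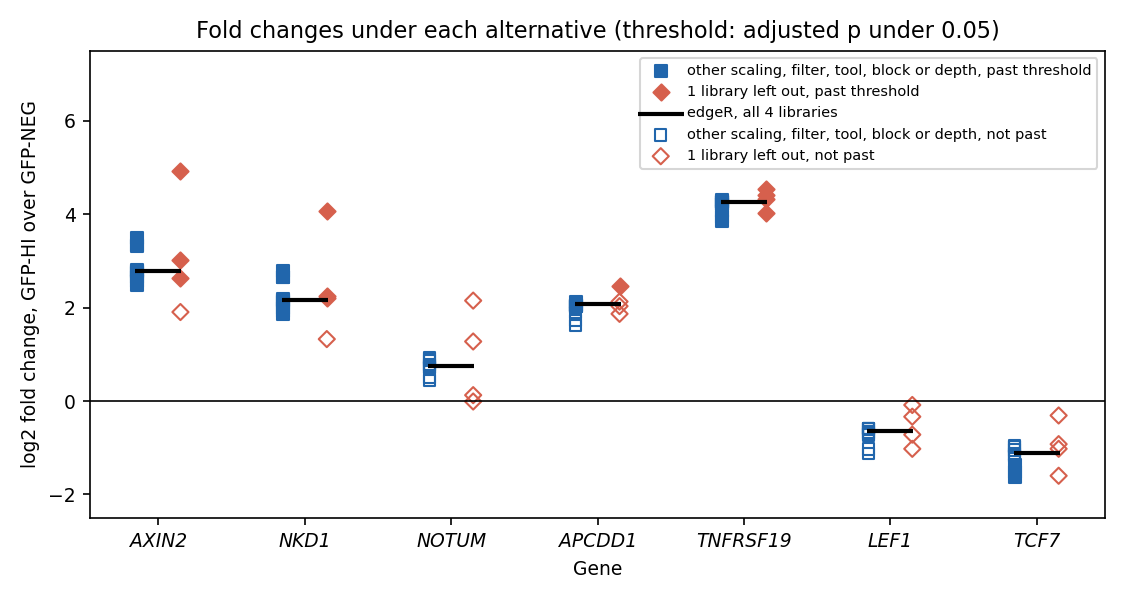
Log2 fold change of each tested gene in edgeR with all 4 libraries (black line), under other scalings, filters, tools, the replicate block or thinned depth (blue squares) and with 1 library left out (red diamonds), filled where the adjusted p is under 0.05. TNFRSF19 is filled throughout, AXIN2 and NKD1 each have 1 open diamond (without GFP-NEG replicate 2), and LEF1 and NOTUM are open throughout.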

How the data were processed

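For every library (4 in all) the authors deposited whole-number counts by gene, and they added a comparison table. Per the file headers the latter holds the same counts, linear normalized signal columns (not used, because 2 headings do not match the counts they carry), the authors' p-value, raw and adjusted, a log2 fold change and a score used as test statistic. Per the submitters' processing notes featureCounts, Subread 1.5.2 and DESeq2 1.37.6 were used, with no role given, and the aligner, strand setting and genome build are not given in the sources used here.

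Of the Ensembl identifiers, 834 were renamed by symbol. The main test was edgeR 4.0.16 (R 4.3.3) with TMM scaling, filterByExpr (19682 genes, 99.8% of counts) and group as the only term, adjusted by Benjamini-Hochberg with a threshold of 0.05. CPM uses TMM-scaled totals, and log2 CPM a prior count of 2. Standard errors are the log2 fold change over the root of F. The common dispersion was 0.239 and the prior degrees of freedom were infinite, so a gene's own scatter did not enter its standard error. DESeq2 1.42.0 and limma 3.58.1 (voom) were alternatives. Blocking on replicate number was a further alternative. The procedure was run on simulated data with the same dispersion for all genes and planted changes larger than those of AXIN2, NKD1 and APCDD1. That run therefore does not bear on these calls or on GFP-NEG libraries that differ.

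The genes and lists were chosen with earlier results of these data known. Named genes are all members, LGR5, paralogs, up to 4 called genes per list by size of change, and the 5 genes nearest to AXIN2, each with a mean of at least 10 CPM. Levels are not compared between genes, since transcript lengths were not used here.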

Additional observations from a re-analysis of the deposited data

How the results depend on the processing

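Over 14 alternatives, the number of Wnt target and feedback genes called higher was 3 or 4 except without GFP-NEG replicate 2, and with each library omitted in turn it lay between 1 and 4. The number called lower was 1 (TCF7) under upper-quartile and library-size scaling and with thinned GFP-HI, and 0 in each fit without a library. NOTUM reversed to -0.0097 without GFP-NEG replicate 2, the lowest of its 4 values with a library omitted (highest 2.15). In those fits a lone library is assumed to vary like the others. Over all genes, 1643 were higher and 5433 lower. Higher genes numbered 1083 (upper-quartile scaling), 888 (library size alone) and 902 (limma-voom), and 216 to 1635 without single libraries. Lower genes numbered 3263 in DESeq2 with the replicate block, 3611 after thinning and 1575 to 4999 without single libraries. The causes were not tested, beyond fewer libraries or counts by construction. The median of all genes moved from -0.25 to -0.58 (upper quartile) and -0.68 (library size), and the differences given above move with it. The replicate block in edgeR kept 4 genes called higher and 0 lower (1707 and 4793 over all genes), and changed no call of the 7 tested genes, with AXIN2 at 3.32. In DESeq2 the same block left 3 called higher, and APCDD1 lost its call (adjusted p of 0.12). Whether equal numbers pair the libraries is not settled: column headings of the comparison table name pig 1 and pig 2, but 2 of them do not match the counts they carry. Deviations of same-numbered libraries correlated with an r of 0.16 over tested genes. NOTUM, SP5 and ASCL2 rest on at most 15 counts in each GFP-NEG library.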

Other observations

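Upstream of these targets, 6 of 15 tested Wnt receptors were higher and 4 lower in GFP-HI, against 8.35% and 27.6% of all tested genes. The higher receptors numbered 2 without GFP-NEG replicate 2, and the lower ones 2 without GFP-HI replicate 2 or GFP-NEG replicate 1. FZD2 rose by 4.35 and ROR2 by 4.11 on the log2 scale, while FZD9 had 2 counts in each GFP-HI library against 33 and 34 in GFP-NEG, and FZD6 fell by 3.31 (adjusted p of 2.1e-04 or less for FZD2, ROR2 and FZD6, and 9.3e-04 for FZD9, edgeR). FZD6 was not called without GFP-NEG replicate 1 (adjusted p of 0.051). Of 17 tested Wnt ligands and their transport genes, 3 rose and 3 fell, with WNT9A up by 2.74. The falling ligands numbered 0 without GFP-HI replicate 2 or GFP-NEG replicate 2, and 1 when GFP-HI replicate 1 was dropped. WNT8A had 0 counts in GFP-HI against 6 and 25 in GFP-NEG. Leaving out counting error in GFP-NEG, WNT8A was 6.26-fold lower, by the smaller GFP-NEG value over a floor of 3 counts per library. Its call was lost without GFP-HI replicate 1 or 2 (adjusted p of 0.071 and 0.074, edgeR).

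Of 10 tested secreted antagonists, 5 rose and 2 fell, against 8.35% higher and 27.6% lower over all tested genes. WIF1 and DKK1 are also in the list of other Wnt targets, so the fall of WIF1 counts in both lists. The rising antagonists numbered 3 without GFP-HI replicate 1, GFP-HI replicate 2 or GFP-NEG replicate 2, and the falling ones 0 without GFP-HI replicate 2 and 1 without GFP-HI replicate 1. SOSTDC1 rose by 4.91, SFRP1 by 4.37 and SFRP4 by 3.58 (adjusted p of 5.3e-08 or less, edgeR), and these 3 kept their calls under all 14 alternatives. Both falling antagonists, WIF1 and FRZB (the latter named after its value was seen), were not called without GFP-NEG replicate 1. In the R-spondin and LGR list, which contains LGR5 and shares RNF43 and ZNRF3 with the target list, 2 of 8 tested genes rose and 2 fell. The falling genes numbered 0 without GFP-HI replicate 2 or GFP-NEG replicate 1 and 1 without either other library, and the rising ones 1 without GFP-HI replicate 2 or GFP-NEG replicate 2 and 3 without GFP-NEG replicate 1.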
